A study of Arabidopsis thaliana with 3 samples.

Results

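NAC genes encode plant transcription factors that share a DNA-binding domain named after NAM, ATAF and CUC, its founding members. The members were taken from the RefSeq TAIR10.1 annotation by text, as protein-coding genes whose product description contains "NAC domain" or "NAC (No Apical Meristem)", in any letter case. This gave 105 genes among 27444 protein-coding genes on chromosomes 1 to 5. The data were ChIP-seq peak lists for UBP5, a ubiquitin protease of Arabidopsis, from 2 biological replicates precipitated with an antibody against GFP, and 1 input served as the background of both. The seedlings, 12 days old after germination and of Col-0 ecotype, carried a genomic UBP5-GFP transgene driven by the promoter of UBP5 itself in a ubp5 mutant made by CRISPR-Cas9. The sample labels name the antibody as UBP5, whereas the protocol in them names anti-GFP. Whole seedlings mix many cell types, and no IP from plants without GFP was analysed here, so unspecific signal and UBP5 cannot be told apart at a single gene.

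NAC proteins work as activators or repressors that bind DNA as dimers. They set organ boundaries (the CUC genes), build the walls of xylem vessels and fibres (the VND and NST genes), shape the root cap, and run responses to drought, damage and senescence. A subset is held at a membrane by a hydrophobic segment at the C terminus and is released to the nucleus by cleavage. Ubiquitin proteases of the UBP family remove ubiquitin from proteins, and the study mapped UBP5 to ask whether it acts directly at the genes where it affects ubiquitin on histone H2A, a mark that Polycomb repression uses.

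A gene was counted as bound when a peak of replicate 1 and a peak of replicate 2 each overlapped its body by at least 1 bp. Of the 105 NAC genes 14 were bound (13.3%), against 29.0% of all protein-coding genes. Other protein-coding genes of like length, within 10% of each NAC gene, were bound in 27.6%, a difference of -14.3 percentage points, and at that share 29.0 NAC genes would have been bound. The difference was -15.0 points with replicate 1 alone, where 18 NAC genes had a peak (17.1%, against 33.8% of all genes), and -15.6 points with replicate 2 alone, where 15 had one (14.3%, against 31.4%). The SD of these single-replicate values was 0.390 points. It states how alike the 2 peak lists are over the same 105 genes, and does not measure how firm the difference is. No test was run on the difference, since both lists come from 1 group and genes are not replicates.

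The 14 bound genes were SOG1, ANAC001, ANAC027, RD26, ANAC078, ANAC004, ANAC017, ANAC050, ANAC089, ANAC052, ANAC013, ANAC102, ATAF2 and ANAC082, in falling order of the lower of their replicate values of fold enrichment. Fold enrichment is the ratio of IP signal at the summit of a peak to the background that the peak caller took from the input. The q-value is the false discovery rate at which that signal is called above the background, given here as -log10. Replicate 2 was the more deeply sequenced by the study's read totals, and -log10 q-values grow with depth, so they are read within a replicate only. Each of the 14 had exactly 1 peak in each replicate, and in all 14 these peaks overlapped each other. Fold enrichment was moderate. It reached at least 3 in both replicates in 2 NAC genes (1.90%), against 3.00% of all protein-coding genes.

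SOG1 (AT1G25580, chr1:8996714-8999917, minus strand), which directs the response to DNA damage, had the highest signal of the family. Its fold enrichment was 4.49 in replicate 1 and 3.62 in replicate 2 (4.06 ± 0.616, SD, n = 2), with -log10 q-values of 63.6 and 109. The summits lay 356 and 333 bp downstream of the annotated start, both in intron 1. Among the 7971 bound protein-coding genes, SOG1 took rank 333 by the lower of both fold values, which is within the top 4.18%. Its closest relatives were not counted as bound. ANAC044, with 48.0% identical residues, and ANAC085, with 46.2%, which act in the same DNA damage pathway, had no peak in their bodies. For ANAC044, peaks of replicates 1 and 2 stood 69 and 82 bp outside the body. They did not both lie within 500 bp of its annotated start, the part where peaks of bound NAC genes mostly sat.

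Short words of the telobox type, AAACCCTA on either strand, lay within 100 bp of a summit of either replicate in 4 of the 14 genes. This was 28.6%, against 20.1% of the other bound genes, and with 14 genes the shares are coarse. These sites are shown because the study looked for motifs around the start sites of UBP5 target genes. Each line gives 30 bases read along the strand of the gene, from RefSeq TAIR10.1, with the telobox or its reverse complement TAGGGTTT in capitals. SOG1 and ANAC004 each held a pair of them, and ANAC052 and ANAC078 held 1 each.
SOG1, chr1:8999642-8999671, minus strand, 5′ UTR: agagacttgtcTAGGGTTTattctcagatt
SOG1, chr1:8999505-8999534, minus strand, intron: gttgaggctctAAACCCTAagtacgattcc
ANAC004, chr1:436235-436264, minus strand, intron: ttccaaactttTAGGGTTTtttgttgttga
ANAC004, chr1:436196-436225, minus strand, intron: ttccagattccTAGGGTTTtttctatctct
ANAC052, chr3:3268028-3268057, plus strand, 5′ UTR: ggaaattgagaAAACCCTAgaacaagtacg
ANAC078, chr5:1243866-1243895, plus strand, 5′ UTR: attcttttttaAAACCCTAatttttcagat
In SOG1 the sites flank the start of intron 1, 260 and 397 bp from the gene start and 96 and 41 bp from the summit of replicate 1. In ANAC004 both lie in the same intron, 39 bp apart, at 34 and 73 bp from that summit. The site of ANAC052 was 78 bp from the summit of replicate 2, and that of ANAC078 was 91 bp from the summit of replicate 1.

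ANAC001 (AT1G01010, chr1:3631-5899, plus strand), the first annotated gene of chromosome 1 and without a role in the lists used here, followed SOG1. Its fold enrichment was 3.58 in replicate 1 and 3.10 in replicate 2, with -log10 q-values of 38.6 and 74.9. Both summits fell in coding exon 1, at 187 and 233 bp. SOG1 and ANAC001 were the NAC genes above a fold enrichment of 3 in both replicates.

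ANAC027 (AT1G64105, chr1:23795050-23795642, plus strand) was the shortest bound member, with 593 bp and a single exon. Its values were 3.05 and 2.72 in fold enrichment and 26.1 and 53.1 in -log10 q-value. Most of its body lies inside AT1G64100 (chr1:23791585-23795563, plus strand), a gene for a pentatricopeptide repeat protein, and the peaks overlap both. It was the only one of the 14 with another annotated gene under its peaks, and the peaks cannot be assigned to either gene. The summits were 187 and 203 bp from the start of ANAC027 and 3652 and 3668 bp from that of AT1G64100. Only 4.27% of other genes as short as ANAC027 were bound.

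The ATAF and drought group of 7 genes, which answer abscisic acid, wounding and dehydration, had 3 bound members, RD26, ANAC102 and ATAF2, against 28.3% of other genes of like length. RD26 (AT4G27410, chr4:13707192-13709170, minus strand), a regulator of the dehydration response, had fold values of 2.98 and 2.56 with -log10 q-values of 24.7 and 45.1. Its summits lay farther into the gene than in any other bound NAC gene, at 875 and 917 bp, in coding exon 3. ANAC019 and ANAC055, its closest relatives with 68.3% and 67.2% identity, had no peak.

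ATAF2 (AT5G08790, chr5:2858849-2860558, minus strand), a wound-induced factor, had 1.96 and 1.73 in fold enrichment and 7.19 and 11.3 in -log10 q-value, with summits in coding exon 1 at 473 and 536 bp. ANAC102 (AT5G63790, chr5:25526509-25528281, minus strand), which shares 86.6% of its residues with ATAF2 and is known from the low-oxygen response of seeds, had 2.49 and 1.75, with -log10 q-values of 15.1 and 12.0. It showed the largest gap between replicates among the 14, a ratio of 1.43, and its summits lay in coding exon 1 at 404 bp in replicate 1 and in intron 1 at 576 bp in replicate 2. ATAF1 and ANAC032, the remaining members of this group, each had a peak in replicate 1 only, so that the 4 genes of the ATAF clade all carried at least 1 peak. That is a looser call than bound, and 63.8% of other protein-coding genes of any length had no peak of either replicate. For ATAF1 (AT1G01720, chr1:267993-269819) the peak had a fold enrichment of 2.18, a -log10 q-value of 10.7 and a summit at 602 bp. For ANAC032 (AT1G77450) the peak had 2.40, 13.5 and 267 bp. These are high for genes with a peak in replicate 1 only, since 9.03% and 1.85% of the 1296 other such genes reached their values, and the median of those was 1.89. The nearest replicate 2 peak was 4649 bp from ATAF1 and 1938 bp from ANAC032.

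The membrane-tethered group had 9 members, of which 4 were bound, against 36.2% of other genes of like length, a share near its own. ANAC078 (AT5G04410, chr5:1243684-1246684, plus strand), a regulator of the response to proteasome stress, had 3.05 and 2.55 in fold enrichment and 26.1 and 44.3 in -log10 q-value. Its summits at 288 and 296 bp sat on the border of the 5′ UTR and coding exon 1. ANAC053, its closest relative with 72.9% identity and a partner in the same response, had a replicate 1 peak only, at 2.00 in fold enrichment and 563 bp.

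ANAC017 (AT1G34190, chr1:12451405-12454542, plus strand) and ANAC013 (AT1G32870, chr1:11911631-11913947, plus strand) carry signals from stressed mitochondria to the nucleus. ANAC017 had 2.31 and 2.15 in fold enrichment and 12.0 and 26.2 in -log10 q-value, with summits at 444 and 352 bp. ANAC013 had 2.18 and 1.86, with -log10 q-values of 9.92 and 15.6 and summits at 256 and 268 bp, and all of these lay in coding exon 1. ANAC089 (AT5G22290, chr5:7375839-7377776, minus strand), which acts in sugar and endoplasmic reticulum stress signalling, had 2.56 and 1.99, with -log10 q-values of 16.8 and 21.4 and summits in intron 1 at 512 and 507 bp. ANAC062, a factor of cold and unfolded protein responses, had a peak in replicate 1 only, at 1.80, where 71.2% of the other genes of that kind were at least as high. The remaining 3, ANAC016, ANAC060 and ANAC069, had none in their bodies.

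ANAC050 (AT3G10480, chr3:3264194-3267695, plus strand) and ANAC052 (AT3G10490, chr3:3267825-3271202, plus strand) are partners of the histone H3K4 demethylase JMJ14. Both were bound, against 40.3% of other genes of like length. They stand next to each other, 129 bp apart, with 85.6% identity, and each had its own peaks near its own start. ANAC050 had 2.49 and 2.04 in fold enrichment, 15.1 and 22.0 in -log10 q-value, and summits in intron 1 at 506 and 493 bp. ANAC052 had 2.42 and 1.91, 13.9 and 17.0, and summits in coding exon 2 at 319 and 296 bp. ANAC053 follows on the same chromosome (AT3G10500) and had the replicate 1 peak given above.

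The remaining bound genes were ANAC004 and ANAC082. ANAC004 (AT1G02230, chr1:434965-436922, minus strand), without a listed role, had 2.47 and 2.25 in fold enrichment, 14.7 and 30.6 in -log10 q-value, and summits in coding exon 2 at 638 and 619 bp. Its neighbour ANAC003 (AT1G02220) was the sole NAC gene with a peak in replicate 2 only, at 1.44, below the median of 1.58 for such genes. ANAC082 (AT5G09330, chr5:2892338-2895480, minus strand), a mediator of the response to ribosome stress, was the lowest of the 14 in replicate 2, with 2.00 and 1.65 in fold enrichment, -log10 q-values of 7.36 and 9.28 and summits inside its 5′ UTR at 223 and 318 bp.

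**Figure D1:**
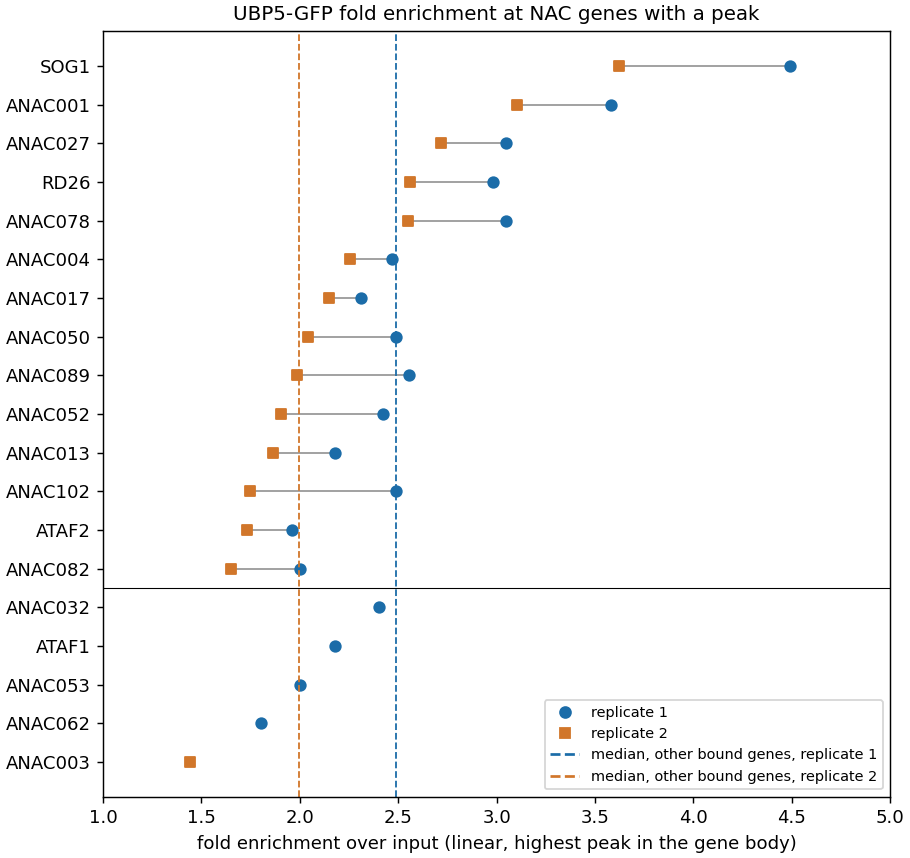
Fold enrichment over input (horizontal axis, linear) of the peak in each NAC gene, as circles for replicate 1 and squares for replicate 2, with the 14 bound genes above the line and the 5 genes with a peak in a single replicate below it. Dashed lines are the medians of other bound genes, 2.49 in replicate 1 and 1.99 in replicate 2. SOG1 stands at the right with 4.49 and 3.62, and the circle lies right of the square in all 14 bound genes.

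Among themselves the 14 spread over a range of 1.96 to 4.49 in replicate 1 and 1.65 to 3.62 in replicate 2. Their medians, 2.49 and 2.09, were close to those of the other bound genes, 2.49 and 1.99. The median -log10 q-value was 15.1 and 24.1, against 15.1 and 20.5. Replicate 1 gave the higher fold enrichment in all 14 genes, as in 97.0% of the other bound genes, and the median ratio of the replicates was 1.18, against 1.24. NAC genes were thus bound less often, while those that were bound had medians close to those of other bound genes. The medians cover only genes past the peak threshold, so they cannot show whether the signal of the remaining NAC genes differs. The medians are a description without a test.

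Peaks of NAC genes lay in the first part of the gene. The median summit was 380 bp downstream of the annotated start in replicate 1 and 342.5 bp in replicate 2, against 328 and 331 bp in other bound genes. Within the first 500 bp lay 10 and 9 of the 14 summits (71.4% and 64.3%), against 80.5% and 81.3%. Summits were in a coding exon in 9 genes in each replicate (64.3%, against 52.4% ± 0.622, SD, n = 2), in an intron in 3 and 4, and in the 5′ UTR in 2 and 1. None lay in a 3′ UTR or outside the gene, and 12 of the 14 genes had the same class in both replicates. By order in the gene, the first exon held 8 and 7 summits, the first intron 3 and 4, the second exon 2 in each replicate, and the third exon that of RD26. The replicates placed their summits a median of 23 bp apart and at most 172 bp, in ANAC102, against a median of 38 bp in other bound genes.

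**Figure D2:**
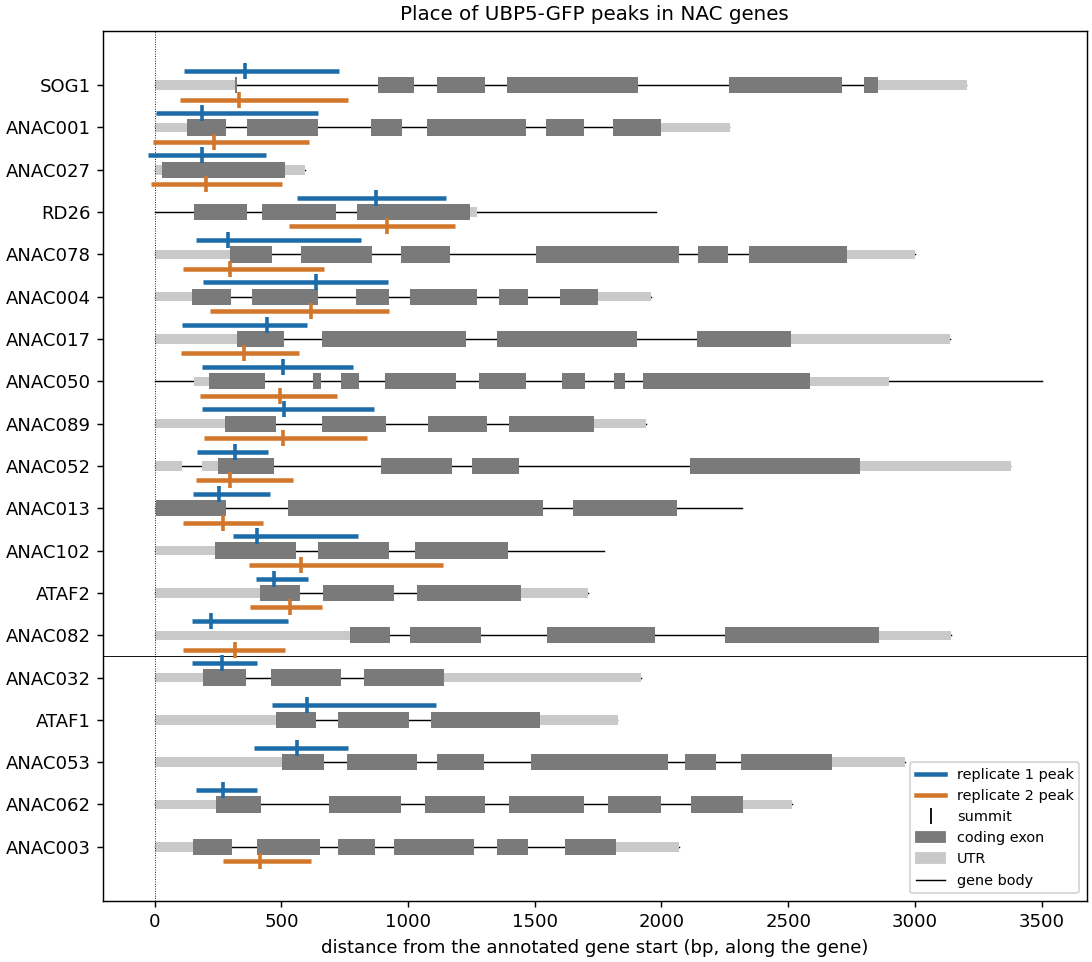
Peaks of replicate 1 (upper bar) and replicate 2 (lower bar), with summit ticks, drawn on the exons of the transcript with the longest coding sequence, against the distance in bp from the annotated start of each gene, with the 14 bound genes above the line and 5 genes with a peak in a single replicate below it. Bars sit in the first exons and introns, except in RD26, whose summits at 875 and 917 bp fall in exon 3.

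The groups of NAC genes listed by organ or cell type had no bound member. These were the boundary genes CUC1, CUC2 and CUC3 (0 of 3), the xylem and wall genes VND2, VND3, VND5, NST1, NST2, NST3, SND2, SND3, XND1 and VNI2 (0 of 10), the root genes SMB, BRN1, BRN2, FEZ and NAC1 (0 of 5), the phloem genes ANAC020, ANAC045 and ANAC086 (0 of 3), and the seed genes NARS1 and NARS2 (0 of 2). Put together, after the values were seen, they made 23 genes with no peak of either replicate in their bodies. Of other protein-coding genes of any length, 63.8% had no such peak. At the share of other genes of like length, 32.4% of the 23 would have been bound. The group of senescence regulators ORE1, ORS1, JUB1, ANAC046 and ANAC087 had none bound of 5 either (29.8% at like length).

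The response, senescence and partner groups, put together in the same way, held 26 genes, of which 10 were bound, against 33.3% bound at like length. By the looser call, 14 of the 26 had a peak of at least 1 replicate, and 63.8% of other protein-coding genes of any length had none. Length was similar in both sets, with a median of 2248.5 bp for these 26 and of 2079 bp for the 23. Among the 56 members without a listed role 4 were bound, ANAC001, ANAC004, ANAC027 and ANAC082, against 23.1% at like length. The role lists are not complete, since ANAC082 has a role given above, and the counts by group depend on them. The sets were chosen with results in view, so the contrast between them carries no test.

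**Figure D3:**
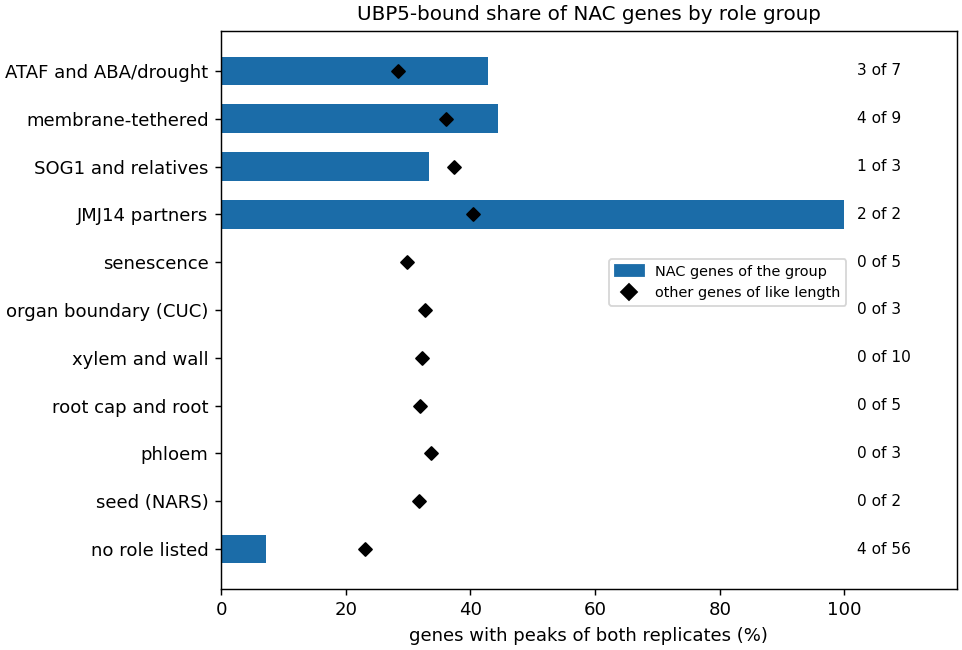
Share of NAC genes with peaks of both replicates (bars, %) in each role group, with the share of other genes of like length as diamonds and the count of bound genes of each group at the right. Bars stand in the ATAF, membrane-tethered, SOG1 and JMJ14 partner groups and among genes without a listed role, and the other 6 groups are at 0.

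In all, 86 NAC genes (81.9%, against 63.8% of other genes) had no peak in their bodies, 4 had a replicate 1 peak only (3.81%, against 4.74% of all protein-coding genes) and 1 had a replicate 2 peak only (0.952%, against 2.36%). For the 86, the nearest peak lay a median of 3690.5 bp away in replicate 1 and 3798 bp in replicate 2. Peaks of both replicates stood within 500 bp of the body in 11 of them. Those were ANAC044, at 69 and 82 bp, ANAC086, ANAC016, VND3, NST1, ANAC060, CUC1, ANAC077, ANAC103, AT3G12910 and AT3G12977. In none of the 11 did peaks of both replicates lie within 500 bp of the annotated start. ANAC016 lies 117 bp from ANAC017, with 76.3% identity, and the peaks nearest to it, 226 and 222 bp away, were those of ANAC017. Likewise, the peaks nearest to ANAC077, 489 and 437 bp away, were those of ANAC078. A gene without a peak had no signal past the authors' threshold, and occupancy too weak for it could not be detected.

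The share of bound genes grew with length among genes at large, and the NAC share lay near that of other genes in the shortest and the longest class. Below 1 kb, 1 of 13 NAC genes was bound (7.69%, against 6.48% of other genes). That share rests on ANAC027 alone, whose peaks cannot be assigned between it and AT1G64100. From 1 to 1.5 kb the count was 0 of 19 (against 18.4%), from 1.5 to 2 kb 5 of 31 (16.1%, against 27.5%), from 2 to 2.5 kb 2 of 16 (12.5%, against 35.4%) and from 2.5 to 3 kb 0 of 11 (against 36.7%). Among the longest, 3 kb and over, 6 of 15 were bound (40%, against 43.0%). The gap was in the classes between, which hold most of the family.

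**Figure D4:**
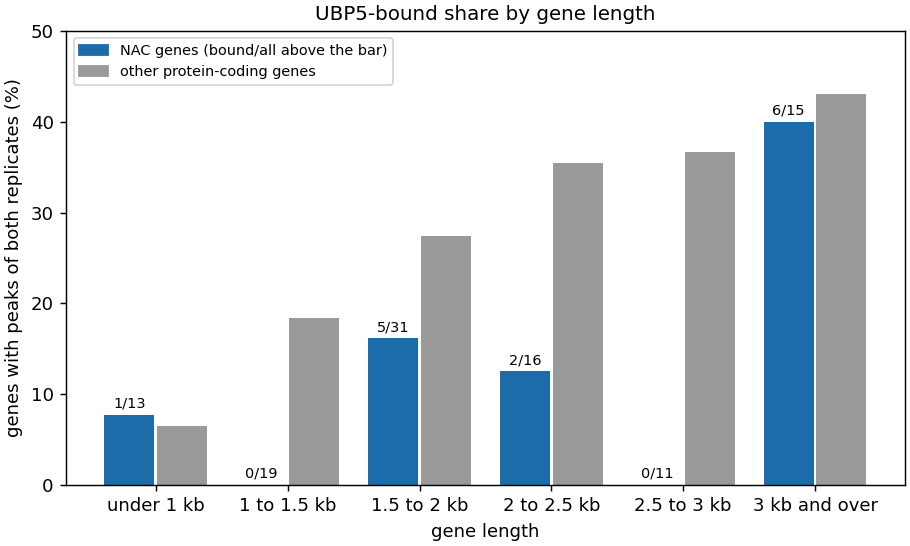
Share of genes with peaks of both replicates (vertical axis, %) by class of gene length, for NAC genes (left bar, bound over all members above it) and other protein-coding genes (right bar). NAC bars reach 16.1% or less below 3 kb and stand near the grey bar at 3 kb and over, with 6 of 15 genes.

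Bound NAC genes had a median length of 2293 bp, against 1827 bp for those not bound. The typical NAC gene has 3 exons, and 4 of 49 such members were bound (8.16%, against 24.5% of other genes with 3 exons). With 4 or more exons it was 9 of 36, against 38.3%, with 2 exons 0 of 10, against 20.4%, and with 1 exon 1 of 10, against 15.1%. By chromosome, the bound NAC genes were 6 of 35 on chromosome 1, 0 of 6 on chromosome 2, 2 of 28 on chromosome 3, 1 of 9 on chromosome 4 and 5 of 27 on chromosome 5. Other genes were bound in 26.2% to 31.6% on these chromosomes. A cluster of 6 NAC genes on chromosome 1, with loci that begin AT1G602 or AT1G603, had no peak. Other genes of like length to each of them were bound in only 11.2% to 25.6%, so 0 of 6 says little about the cluster.

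A hydrophobic tail was looked for in the reference proteins, as a stretch of 19 residues with a mean hydropathy of at least 1.6 on the Kyte-Doolittle scale within the last 60. This found 11 NAC genes, ANAC001, ANAC013, ANAC016, ANAC017, ANAC028, ANAC053, ANAC060, ANAC062, ANAC069, ANAC078 and ANAC089. They include all 9 members of the membrane-tethered group, so genes already given for that group are counted again here. Of the 11, 5 were bound (45.5%, against 36.6% of other genes of like length). A replicate 1 peak only was seen in 2, and in 4.74% of all protein-coding genes. Among the 94 without such a tail 9 were bound (9.57%, against 26.6% at like length) and 2 had a replicate 1 peak only. The check was chosen after the values were seen and carries no test. By protein identity, the closest NAC relative was itself bound for 4 of the 14 bound genes, had a peak in a single replicate for 1 and had no peak for 9. The 4 are ANAC050 with ANAC052 and ATAF2 with ANAC102, so that each pair is counted from both sides. For the 91 NAC genes not bound the closest relative was bound for 9, and of all NAC genes 13.3% were bound.

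The letters of the promoter and first transcribed bases were compared in a window that opened 500 bp before the start and closed 250 bp after it. The telobox was present in 7 of the 14 bound NAC genes, ANAC013, ANAC017, ANAC027, ANAC050, ANAC052, ANAC078 and ANAC082, and in 19 of 91 NAC genes not bound (20.9%). Of other protein-coding genes, 25.3% of the bound and 13.0% of the unbound held it, and 16.6% of all genes did. The GAGA word GAGAGAGA, on either strand, was present in 8 bound NAC genes (57.1%) and in 25.3% of the NAC genes not bound, against 29.5% of other bound and 23.3% of other unbound genes, and 25.1% of all. In a narrower window, which opened 250 bp before the start and closed 50 bp after it, the GAGA word went the other way, with 1 of 14 bound NAC genes (7.14%), against 19.8% of those not bound, and 8.94% of other bound genes. The telobox was in 4 of 14 there (28.6%), against 6.59% and 7.23%. Nearer the peak, within 100 bp of the summit, a telobox lay in 3 of the 14 in each replicate (21.4%, against 16.5% and 16.6% of other bound genes). The GAGA word lay there in 0 and 1. The sites of SOG1 and ANAC004 printed above lie downstream of the promoter window and are not counted in it. With 14 genes the shares are coarse, and a match of letters is not evidence of a bound factor.

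Large families of transcription factors chosen by the same kind of text were also bound less often than protein-coding genes at large. WRKY genes were bound in 4 of 72 (5.56%), MADS-box genes in 12 of 120 and homeobox genes in 38 of 208 (18.3%), so that the NAC share of 13.3% lay between those of the MADS-box and homeobox genes. These shares were not matched for length.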

How the data were processed

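Per the labels and the study's methods, reads of the IP and input libraries were filtered with SOAPnuke and aligned to TAIR10 with Bowtie2 2.4.5, reads with a unique place were kept, and the authors called peaks with MACS3 3.0.0 on paired-end fragments, for each replicate against the shared input at a q-value of 0.01. Whether duplicates were removed from these libraries is not given in the sources used here. The deposited lists give fold enrichment over input as a linear ratio and the −log10 of the q-value, which grows with depth. The read totals that the study lists put replicate 2 far above replicate 1 and the input. The peak lists hold no reads, so those totals were not used here and no counting interval was set on fold values.

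Peaks on chromosomes 1 to 5 (10266 in replicate 1 and 10898 in replicate 2) were joined to genes of RefSeq TAIR10.1. All end within its chromosome lengths. Mitochondrial peaks (1 and 63) were left out. The peak with the highest fold enrichment stood for a gene, and exon and UTR classes follow the transcript with the longest coding sequence. The share at like length is the mean, over the NAC genes, of the bound share of other protein-coding genes within 10% of the length. Identity comes from global alignment of translated reference coding sequences. Python 3.11.15, numpy 2.4.6, scipy 1.17.1, Biopython 1.88 and matplotlib 3.10.9 were used, and the overlap step was tested on simulated data. The text names every bound NAC gene, the 10 with the highest lower fold enrichment in full, every member with a peak in 1 replicate, and the members of the role groups. The members, role lists and alternatives were chosen with earlier results of these data known. The merged role groups, the tail check and some of the alternatives were chosen after the values were seen. An SD over the 2 replicates measures their spread alone. No test was run, because the lists hold 1 group.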

Additional observations from a re-analysis of the deposited data

How the results depend on the processing

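The NAC share stayed below that of genes of like length in all 17 alternatives, from -16.3 to -0.902 points. The count of bound NAC genes, 14 as reported, was 5 at a -log10 q-value above 20, 2 at a fold enrichment of at least 3, and 9 of 89 among genes that overlap no other gene, an alternative added after the data were seen. It was 15 to 18 with a single replicate. The difference in share, -14.3 points as reported, was -12.9 at a -log10 q-value above 5, -4.89 above 20 and -0.902 at a fold enrichment of at least 3, where few genes are left. Fewer genes of any kind pass a stricter cut, so points at these cuts cannot be set directly beside -14.3. At a fold enrichment of at least 3 the shares were 1.90% of NAC genes and 3.00% of all protein-coding genes. The difference was -13.4 with summits inside the body, -16.3 in a window around the start, -13.2 with each peak given to 1 gene, -15.6 to -15.0 with a single replicate, -14.9 with the role list added, -14.9 among genes that overlap no other gene, and -12.6 at the same exon number. Median fold enrichment was 3.05 and 2.72 for the 5 genes above a -log10 q-value of 20, and the median summit distance was 271.5 and 283 bp for the 2 genes at a fold enrichment of at least 3. In a window from 250 bp upstream to 50 bp downstream the telobox was in 28.6% of bound NAC genes, against 6.59% of those not bound and 7.23% of other bound genes. The 6-letter core was in 57.1%, against 41.8% and 45.3%, and the difference from the NAC genes not bound was then 15.4 points, against 29.1 points for the 8-letter word. For the GAGA word, in a comparison added after the data were seen, this difference was 31.9 points in the wide window and reversed to -12.6 points in the narrow one. No paired analysis was possible because both IP replicates belong to 1 group. The data hold 2 replicates of unequal depth, 1 input and no IP without GFP.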

Other observations

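The product text misses 11 further genes with a NAC name or NAC-like description, and 2 of them were bound. NTM1 (AT4G01540), a membrane-tethered regulator of cell division, had fold values of 3.29 in replicate 1 and 2.52 in replicate 2, with summits 265 and 239 bp from its start. NTL9 (AT4G35580), tethered in the same way and known from osmotic and immune responses, had 1.82 and 1.49, with summits at 253 and 252 bp. The other 9 had no peak in their bodies, among them the vessel genes VND1, VND4, VND6 and VND7, the senescence gene NAP, and the tethered factors ANAC014 and NTL8. With these genes counted in, 16 of 116 were bound.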
